A study of Mus musculus with 27 samples.

Results

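The 10 genes described here license and prepare DNA for replication: Mcm2, Mcm3, Mcm4, Mcm5, Mcm6, Mcm7, Mcm10, Cdc6, Cdt1 and Pcna. They were taken as named genes of the licensing machinery, with earlier results of these data known, and each matched 1 of the 54532 genes in the count tables. They were measured by RNA-seq of splenic B cells from C57BL/6 mice (strain label C57BL6, wild type), which were purified by negative selection and kept in culture for 3 h. In experiment 1 there were 5 groups of 4 libraries: unstimulated B cells, B cells given lipopolysaccharide (LPS, a T-independent stimulus), B cells given LPS with 1 μM disulfiram (DSF), B cells given IL-4 with an anti-CD40 antibody (IL4CD40, a T-dependent stimulus), and B cells given IL4CD40 with 1 μM DSF. DSF is an aldehyde dehydrogenase inhibitor known as a treatment for alcohol dependence. Experiment 2 held 7 single libraries: the same 5 conditions and each stimulus with 1 μM ibrutinib, an inhibitor of the kinase BTK. The paper's figure legends call the cells with DSF or ibrutinib pre-treated, and no length of that step is given. Exposure to the drug may therefore have been longer than 3 h. By their labels, the groups given a stimulus without a drug received vehicle. In experiment 2 the names of these libraries and of the unstimulated library give DMSO. Neither the labels nor the methods say whether libraries with the same replicate number share a mouse, so the p-values measure the spread between these libraries, which may be partly technical. In bulk RNA, fewer cells expressing a gene and less of its RNA per cell cannot be told apart.

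Licensing is the step that makes an origin of replication competent to fire. The origin recognition complex (ORC), Cdc6 and Cdt1 load the Mcm2-7 hexamer, the core of the replicative helicase, onto DNA, and Mcm10 acts later, when the loaded helicase is activated. Pcna is the sliding clamp that holds the polymerase on its template once synthesis has begun. Resting lymphocytes are quiescent, and the genes of this machinery are classical targets of E2F transcription factors, which are released from pocket proteins as a cell leaves quiescence. The question asked of the data was how these genes stood soon after stimulation, before cell division, and whether DSF changed them.

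The genes lie on 7 chromosomes of mm10. Mcm3 (ENSMUSG00000041859, chr1:20802968-20820312) and Mcm6 (ENSMUSG00000026355, chr1:128331590-128359664) lie on the minus strand of chromosome 1. Mcm10 (ENSMUSG00000026669, chr2:4989714-5012791) and Pcna (ENSMUSG00000027342, chr2:132249162-132253314) lie on the minus strand of chromosome 2. Mcm5 (ENSMUSG00000005410, chr8:75109569-75128439) and Cdt1 (ENSMUSG00000006585, chr8:122568015-122573554) lie on the plus strand of chromosome 8. Mcm2 (ENSMUSG00000002870, chr6:88883474-88898780) and Mcm4 (ENSMUSG00000022673, chr16:15623897-15637400) are on the minus strand, and Cdc6 (ENSMUSG00000017499, chr11:98907801-98923940) is on the plus strand. Mcm7 (ENSMUSG00000029730, chr5:138164583-138172422, minus strand) shares its locus with Cops6 and Ap4m1 on the opposite strand, with up to 2703 and 546 counts per library, and with the miRNA genes Mir106b, Mir25 and Mir93 on its own strand, with 0 to 5. The strand setting of the counting was not given in the sources used here, so the Mcm7 counts may hold reads of these neighbours. Cops6 moved against Mcm7 with DSF, at log2 fold changes of -0.92 with LPS and -0.83 with IL4CD40. With DSF, Ap4m1 fell under LPS (-0.32) and did not pass the test under IL4CD40 (-0.15, edgeR adjusted p = 0.236). Against unstimulated cells, LPS lowered Ap4m1 (-0.43), the direction of Mcm7 described below, and raised Cops6 (0.46). IL4CD40 likewise lowered Ap4m1 (-0.37) and raised Cops6 (0.70). The 2 genes named as Pcna pseudogenes had at most 59 counts in a library, against 2796 to 5675 for Pcna.

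Promoters are shown for 4 members, chosen because Mcm3 and Mcm5 fell with DSF while Mcm7 and Pcna rose, as described below. Each sequence is the RefSeq window of 300 bases on GRCm38.p6 that runs from 250 bases before to 50 bases after the annotated start, on the strand of the gene. Capitals mark matches to the E2F-type 8-mers TTTGGCGC, TTTCGCGC, TTTCCCGC and TTTGCCGC on either strand.
Mcm3, chr1:20820263-20820562, minus strand: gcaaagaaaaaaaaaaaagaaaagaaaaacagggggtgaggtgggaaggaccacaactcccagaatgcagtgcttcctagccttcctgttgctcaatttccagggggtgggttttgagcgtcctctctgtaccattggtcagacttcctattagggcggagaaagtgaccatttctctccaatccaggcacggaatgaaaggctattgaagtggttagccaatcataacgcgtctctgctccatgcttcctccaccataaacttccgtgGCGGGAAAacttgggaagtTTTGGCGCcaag
Mcm5, chr8:75109259-75109558, plus strand: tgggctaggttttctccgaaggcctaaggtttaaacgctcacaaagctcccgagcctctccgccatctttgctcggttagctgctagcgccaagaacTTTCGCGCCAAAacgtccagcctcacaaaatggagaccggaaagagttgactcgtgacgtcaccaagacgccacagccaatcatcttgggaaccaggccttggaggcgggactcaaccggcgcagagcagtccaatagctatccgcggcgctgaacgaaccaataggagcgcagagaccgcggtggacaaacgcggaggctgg
Mcm7, chr5:138171834-138172133, minus strand: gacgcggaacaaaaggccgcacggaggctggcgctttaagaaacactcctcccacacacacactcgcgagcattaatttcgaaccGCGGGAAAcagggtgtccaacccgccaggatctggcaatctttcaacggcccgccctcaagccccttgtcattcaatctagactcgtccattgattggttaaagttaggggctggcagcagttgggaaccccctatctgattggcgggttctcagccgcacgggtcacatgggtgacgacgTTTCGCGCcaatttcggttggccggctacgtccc
Pcna, chr2:132253131-132253430, minus strand: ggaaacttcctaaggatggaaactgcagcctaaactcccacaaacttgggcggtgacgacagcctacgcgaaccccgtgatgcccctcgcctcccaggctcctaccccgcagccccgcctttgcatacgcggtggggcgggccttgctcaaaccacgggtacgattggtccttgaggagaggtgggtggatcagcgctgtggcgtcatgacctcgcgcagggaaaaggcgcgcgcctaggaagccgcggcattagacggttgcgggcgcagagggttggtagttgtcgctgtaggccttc
Of the 10 members, 9 had a promoter window (Mcm4 did not), and 6 of these 9 genes held at least 1 of the 8-mers. Of all 32851 windows of the same length, 2.26% did. That share counts windows, and the 9 genes have 10 windows, since Mcm7 has a second. The GC content of the members' windows ran from 48.7% (Mcm3) to 66.7% (Cdt1), against a median of 52.7% over all windows. It was not matched in this comparison. The matches were in Mcm3 (at 20 and 39 bases after the start), Mcm5 (2 that overlap, from 153 and 149 bases before it), Mcm6 (2 that overlap, from 110 and 106 bases before it, and 1 from 47 bases before it), Mcm7 (165 bases before and 17 bases after), Cdc6 (138 bases before) and Cdt1 (33 bases after). Positions are counted from the RefSeq start. For Mcm7 and Cdc6 that start lies inside the locus given above, and so do their matches before it. A second Mcm7 window held no match, and the windows of Mcm2, Mcm10 and Pcna held none. The Mcm10 window ends in tttggcg, which is TTTGGCGC without its last base, so a match that crosses the window's end could not be seen. The E-box CACGTG was in 7.15% of all windows and in none of the members. Members that rose and members that fell with DSF both occur among those with a match and among those without one.

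The members were expressed at very different levels, compared here as FPKM, which divides by gene length. In unstimulated B cells Pcna was the most abundant (53 ± 5.24 FPKM, SD, n = 4), followed by Mcm6 (26.9 ± 8.16), Cdt1 (22.6 ± 3.74), Mcm3 (21 ± 1.42), Mcm4 (18.6 ± 1.73), Mcm7 (18.4 ± 1.52), Mcm5 (17.7 ± 2.49) and Mcm2 (10.2 ± 1.18). Cdc6 and Mcm10 lay far below, at 1.03 ± 0.643 and 0.731 ± 0.384 FPKM. From Mcm6 down to Mcm5 neighbouring genes did not differ beyond their spread over libraries, and neither did Cdc6 and Mcm10, while Mcm2 lay below the other hexamer subunits and Pcna above every other member. Summed over the 6 hexamer subunits the level was 113 ± 1.13 FPKM, of which Mcm6 made up 23.9% and Mcm2 9.05%. The low members rest on few reads, 55 to 198 counts per library for Cdc6 and 73 to 208 for Mcm10 in this group, against 1319 to 4236 for the others.

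**Figure D1:**
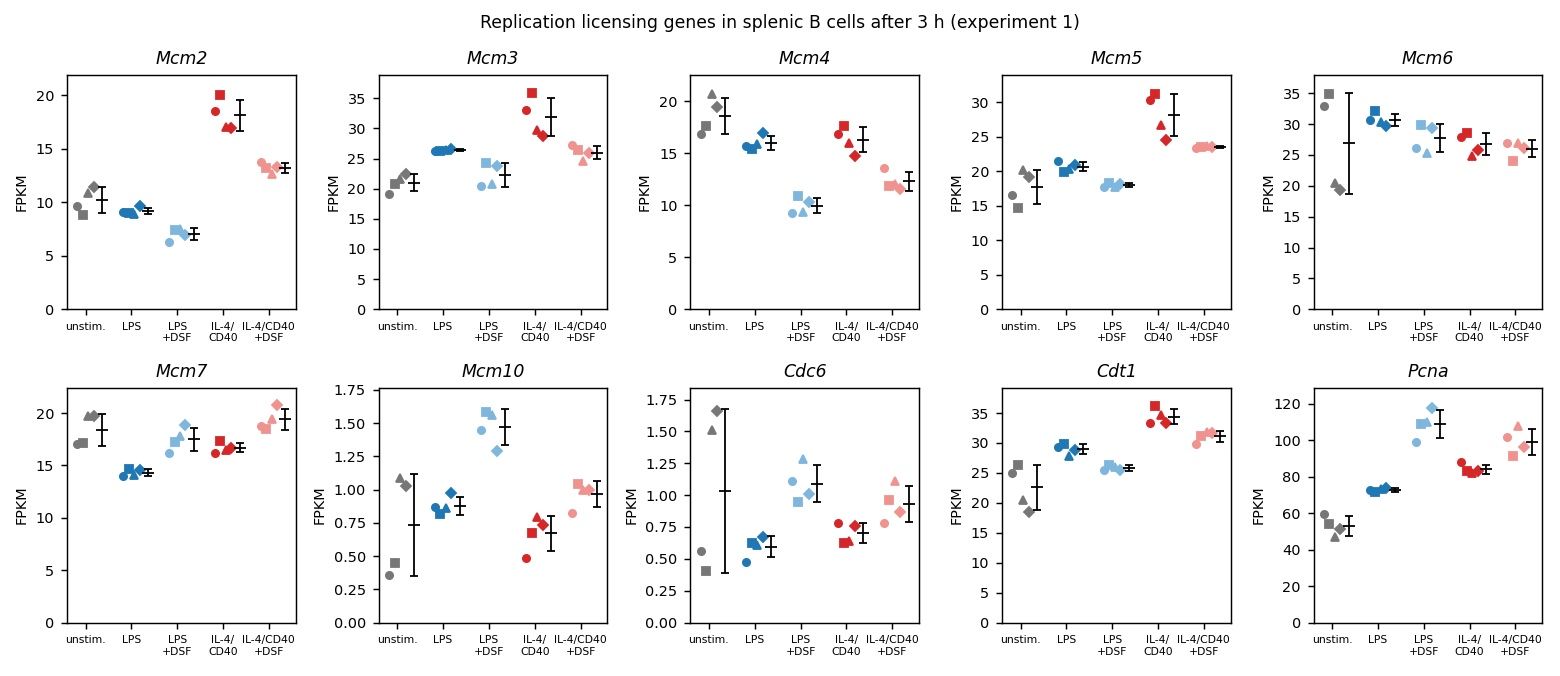
FPKM of each of the 10 licensing genes in the 20 libraries of experiment 1, with a linear y axis from 0 in each panel. Each symbol is a library (circle, square, triangle and diamond for replicates 1 to 4) and the bar beside each group is the mean ± SD. The unstimulated libraries lie in widely separated pairs for Mcm6, Mcm10 and Cdc6, and Pcna rises with each stimulus and again with DSF.

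The unstimulated group was not uniform, and this touches every comparison with it. Replicates 1 and 2 deviated from the group mean together across genes, as did replicates 3 and 4, and 1095 of 9834 genes (11.1%) ranged over at least 2-fold across the 4 libraries, against 0.437% to 4.09% in the other groups. For all 10 members both libraries of one pair lay above both of the other. How many of all genes separated in this way was not counted, so it is not read as a trait of the members. Cdc6 read 0.559 and 0.405 FPKM in replicates 1 and 2 but 1.51 and 1.66 in replicates 3 and 4. Mcm10 read 0.356 and 0.445 against 1.09 and 1.03, whereas Mcm6 ran the other way, at 33 and 34.9 against 20.5 and 19.4. Other lists moved with this split. The summed level of 12 S, G2 and M phase markers was 33.3 and 33.2 FPKM in replicates 1 and 2 and 59 and 59.8 in replicates 3 and 4. That of 8 B cell markers was 2550 and 2500 against 3640 and 3600, that of 7 erythroid markers 4.05 and 3.32 against 20 and 21.5, that of 5 neutrophil markers 76.3 and 77 against 15.3 and 20.6, that of 7 T cell markers 5.69 and 5.21 against 2.38 and 2.44, and that of 6 myeloid markers 344 and 335 against 427 and 440. Their part in the results was not tested. Each comparison with unstimulated B cells is therefore also given against either pair alone, an alternative chosen after seeing the data. A fit against a single pair leaves out the spread between the pairs, so its p-values do not measure the variation of unstimulated cells. Passing the threshold in such a fit is a description and no separate evidence.

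The IL4CD40 group showed a smaller split of the same replicate numbers. The chi-square per gene between its libraries was 3.29 for replicates 1 and 2 and 5.88 for 3 and 4, but 14 to 24.3 across these pairs, where the unstimulated group had 2.74 and 6.14 within and 76.2 to 81.5 across. Mcm5 read 30.3 and 31.2 FPKM in replicates 1 and 2 with IL4CD40 and 26.8 and 24.6 in replicates 3 and 4, and the B cell marker sum was 2760 and 2900 against 2380 and 2270. The results that rest on this group were therefore also computed with either of its pairs alone, which was likewise chosen after seeing the data. These fits also leave out the spread between the pairs.

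Counts were compared between groups of 4 libraries with edgeR's quasi-likelihood test, with the Benjamini-Hochberg adjusted p over all genes tested and 0.05 as the threshold. The 95% intervals are not adjusted over genes, so an interval can exclude no change for a gene that did not pass. After LPS, Mcm3, Cdt1 and Pcna rose, while Mcm4 and Mcm7 fell. Thus 3 of 10 members were raised and 2 lowered, where 29.6% of all 14477 genes tested were raised and 33.3% lowered, so these shares were near the background. Their median log2 fold change was 0.22, against -0.05 over all genes tested. The clamp gene Pcna changed most among the called members. Its level was 59.6, 54.2, 47.2 and 51.1 FPKM in the unstimulated libraries and 73, 71.5, 73.5 and 73.7 FPKM with LPS. All 4 stimulated libraries stood above all 4 unstimulated ones, with a log2 fold change of 0.48 and an SE of 0.0726 (edgeR adjusted p = 0.000498). Cdt1, the loading factor that licensing control acts on, had a log2 fold change of 0.38 and an SE of 0.102 (adjusted p = 0.0105), and its FPKM of 27.9 to 29.8 with LPS lay above the 18.4 to 26.3 of unstimulated cells. Mcm3 rose by a similar amount, with a log2 fold change of 0.34 and an SE of 0.0681 (adjusted p = 0.00219).

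Mcm7 stood at 14, 14.7, 14.1 and 14.6 FPKM with LPS, below each of the unstimulated libraries at 17, 17.1, 19.7 and 19.7 FPKM. Its log2 fold change was -0.34 (SE 0.0757, adjusted p = 0.00372 from edgeR). Mcm4 had a log2 fold change of -0.21 with an adjusted p of 0.0465, and it was not past the threshold with DESeq2, with either other filter on low counts, without 6 of the 8 libraries in turn, or against unstimulated replicates 1 and 2 alone. The other members did not pass the test with LPS, and their 95% intervals on the log2 scale ran from -0.354 to 0.07 for Mcm2, from 0.003 to 0.479 for Mcm5, from -0.208 to 0.619 for Mcm6, from -0.535 to 1.088 for Mcm10 and from -1.804 to 0.229 for Cdc6. The last 3 are the members whose unstimulated pairs lay furthest apart. Against replicates 3 and 4 alone, Cdc6 had a log2 fold change of -1.38, Mcm6 0.65 and Mcm10 -0.25, and against replicates 1 and 2 alone the same genes had 0.33, -0.12 and 1.16, so their direction turned with the pair, although neither the -0.25 of Mcm10 nor the 0.33 of Cdc6 passed the threshold. Mcm2 passed as lowered only against replicates 3 and 4 (-0.26, edgeR adjusted p = 0.000289), and Mcm5 as raised only against replicates 1 and 2 (0.43, adjusted p = 2.89e-07). For Mcm3, Mcm7, Cdt1 and Pcna the call held against either pair, at 0.29 and 0.43 for Mcm3, -0.43 and -0.22 for Mcm7, 0.61 and 0.20 for Cdt1, and 0.60 and 0.39 for Pcna, with replicates 3 and 4 given first.

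After IL4CD40, 5 of 10 members rose and 0 fell: Mcm2, Mcm3, Mcm5, Cdt1 and Pcna. The background was 30.4% of 14433 genes raised and 32.1% lowered, and the members' median log2 fold change was 0.32, against -0.04 over all genes tested. Mcm2, a subunit of the hexamer that also binds histones, moved most. It stood at 9.61, 8.85, 10.9 and 11.4 FPKM in unstimulated cells and at 18.5, 20, 17 and 16.9 FPKM with IL4CD40. The groups did not overlap, and the log2 fold change was 0.85 (SE 0.108, adjusted p = 0.000151 from edgeR). Mcm5 followed with 0.70 (SE 0.126, adjusted p = 0.00117), Pcna with 0.69 (SE 0.0801, adjusted p = 9.42e-05), Cdt1 with 0.63 (SE 0.106, adjusted p = 0.000761) and Mcm3 with 0.62 (SE 0.0958, adjusted p = 0.000472). These 5 passed the test against either pair of unstimulated libraries. Mcm4, Mcm6, Mcm7, Mcm10 and Cdc6 did not pass, with log2 fold changes of -0.17, 0.02, -0.12, -0.11 and -0.55. Against replicates 3 and 4 alone Mcm6 was 0.45, Mcm10 -0.63 and Cdc6 -1.15, and against replicates 1 and 2 alone they were -0.34, 0.75 and 0.54, each past the threshold in both cases and in opposite directions. Leaving out any single library kept the number raised at 5 and lowered at 0. Scaling by total counts, which moved the median gene from -0.041 to -0.191 in this comparison and from -0.046 to -0.273 with LPS, left 5 raised with IL4CD40 but 1 of 3 (Pcna) with LPS, and added Mcm4 and Mcm7 as lowered with IL4CD40.

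**Figure D2:**
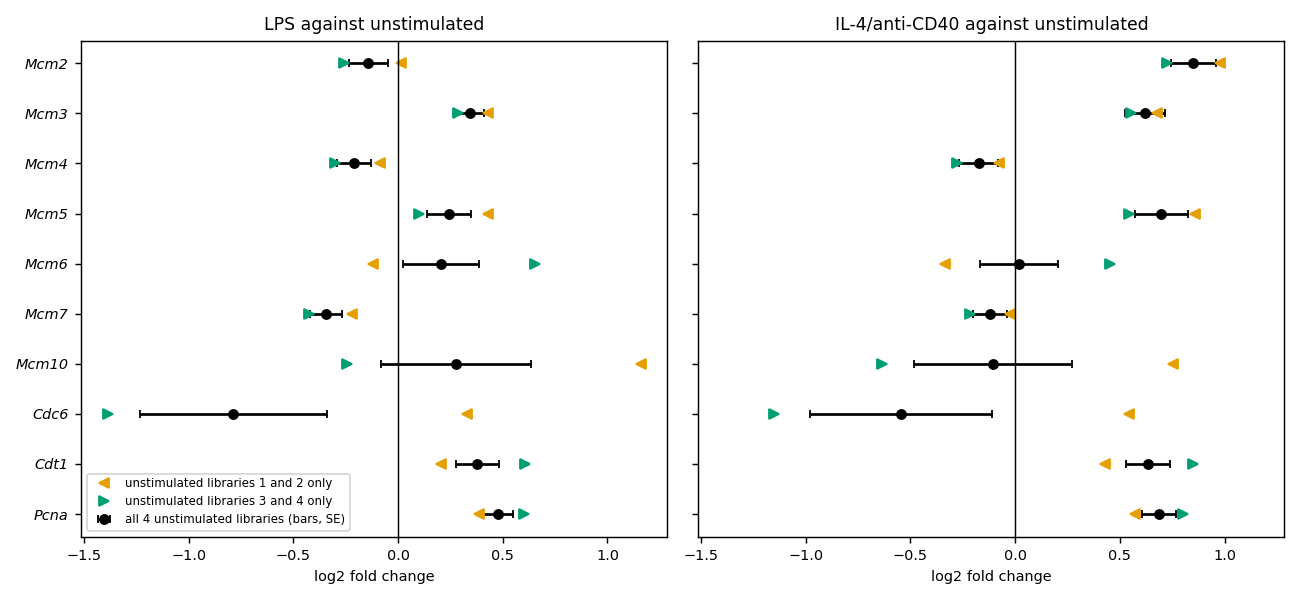
Log2 fold change of each licensing gene with LPS (left) and IL4CD40 (right) against unstimulated B cells. Black points use all 4 unstimulated libraries and carry the SE, and the triangles use replicates 1 and 2 or replicates 3 and 4 only. For Mcm6, Mcm10 and Cdc6 the triangles lie on opposite sides of 0, and for Mcm3, Cdt1 and Pcna both lie above 0.

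The stimuli were also compared with each other, which does not involve the unstimulated libraries. With LPS, 2 of 10 members were higher and 6 lower than with IL4CD40, where 22.3% of 14078 genes were higher and 17.3% lower. The largest difference was in Mcm2, at 9.13, 9.02, 8.92 and 9.61 FPKM with LPS against the 16.9 to 20 FPKM given above. This is a log2 fold change of -0.93 and an SE of 0.0578 (edgeR adjusted p = 1.19e-07), or 1.91-fold. Mcm5 (-0.40), Mcm3 (-0.22), Cdt1 (-0.20), Mcm7 (-0.17) and Pcna (-0.16) were lower too, with adjusted p from 0.000699 to 0.014. Mcm10 (0.44, SE 0.148, adjusted p = 0.0357) and Mcm6 (0.25, SE 0.0518, adjusted p = 0.00266) were higher with LPS. Both calls were lost with total counts as the scaling and in a single fit of all 20 libraries, in which Mcm7 and Pcna were not past the threshold either. Mcm7 (adjusted p = 0.0745) and Pcna (0.0637) also missed it when every gene with any count was kept. The Mcm10 call was also lost without each of 6 of the 8 libraries in turn (any replicate with LPS, or replicate 1 or 2 with IL4CD40), and with only replicates 3 and 4 of IL4CD40 it was 0.22 (adjusted p = 0.218). The other 7 calls held with either pair of IL4CD40 libraries. Mcm4 and Cdc6 did not pass, with 95% intervals of -0.107 to 0.15 and -0.525 to 0.151.

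All 10 licensing genes passed the test for DSF in LPS-stimulated B cells, and not in 1 direction. The 5 hexamer subunits Mcm2 to Mcm6 and the loader Cdt1 fell, while Mcm7, Mcm10, Cdc6 and Pcna rose. These are 6 of 10 lowered and 4 raised, where 36% of 14154 genes tested were lowered and 35.1% raised. The members' median log2 fold change was -0.14, against 0.00 (0.0019) over all genes tested. Mcm4 fell most, from 15.7, 15.4, 15.9 and 16.9 FPKM with LPS to 9.29, 10.9, 9.39 and 10.3 FPKM with LPS and DSF. The groups were far apart, and the log2 fold change was -0.66 (SE 0.0578, adjusted p = 2.1e-10 from edgeR). Mcm2 went from the values above to 6.29, 7.38, 7.46 and 6.92 FPKM, a log2 fold change of -0.37 and an SE of 0.0543 (adjusted p = 1.46e-06). Mcm3 (-0.23), Mcm5 (-0.18) and Cdt1 (-0.15) fell by less, with adjusted p from 0.000288 to 0.00243 and no overlap of FPKM between the groups. For Mcm6 the log2 fold change was -0.13 with an adjusted p of 0.0198, the groups overlapped in FPKM, and the call was lost without replicate 1 (adjusted p = 0.0628) or replicate 3 (0.105) of the group with DSF. In the single fit of all 20 libraries neither Mcm6 (adjusted p = 0.372) nor Cdt1 (0.0661) passed.

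Of the members that rose with DSF, Pcna was measured most precisely. It was at 99, 109, 110 and 118 FPKM with LPS and DSF, above each library with LPS alone at 71.5 to 73.7. Its log2 fold change was 0.60 (SE 0.045, adjusted p = 1.06e-11 from edgeR). Cdc6, the ATPase that recruits the hexamer to ORC, was at 0.477, 0.624, 0.611 and 0.67 FPKM with LPS and at 1.11, 0.949, 1.28 and 1.01 FPKM with LPS and DSF. The groups did not overlap and the log2 fold change was 0.88 (SE 0.156, adjusted p = 1.8e-05), at 53 to 106 counts per library. Mcm10 was at 0.869, 0.815, 0.858 and 0.976 FPKM with LPS and at 1.45, 1.58, 1.56 and 1.29 FPKM with DSF added. Again all libraries with DSF were higher, with a log2 fold change of 0.76 and an SE of 0.107 (adjusted p = 7.03e-07). Mcm7 was the only hexamer subunit that rose in this comparison. Its FPKM of 16.2, 17.2, 17.8 and 18.9 stood above each of the 4 libraries with LPS alone, with a log2 fold change of 0.31 and an SE of 0.0488 (adjusted p = 4.02e-06).

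In IL4CD40-stimulated B cells DSF lowered Mcm2, Mcm3, Mcm4, Mcm5 and Cdt1 and raised Mcm7, Mcm10, Cdc6 and Pcna. These are 5 of 10 lowered and 4 raised, where 31.6% of 14275 genes were lowered and 30.1% raised. The median log2 fold change was -0.12 for the members and -0.02 over all genes tested. Mcm2 stood at 13.8, 13.2, 12.6 and 13.3 FPKM with DSF, below every library with the stimulus alone, with a log2 fold change of -0.48 and an SE of 0.0593 (edgeR adjusted p = 3.58e-05). Mcm4 went from 16.8, 17.6, 16 and 14.7 FPKM to 13.6, 11.8, 12 and 11.6 FPKM, a log2 fold change of -0.43 and an SE of 0.0706 (adjusted p = 0.000288), again without overlap. Mcm3 (-0.31), Mcm5 (-0.28) and Cdt1 (-0.17) fell, with adjusted p from 0.00182 to 0.00915. Mcm6 did not pass the test, at -0.06 with a 95% interval of -0.192 to 0.065.

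Mcm7 rose from 16.2, 17.3, 16.5 and 16.7 FPKM to 18.8, 18.5, 19.4 and 20.8 FPKM with IL4CD40 and DSF. No library with DSF was as low as those without, and the log2 fold change was 0.20 (SE 0.0532, adjusted p = 0.00741 from edgeR). Pcna was at 88, 83, 82.2 and 83.2 FPKM with the stimulus and at 102, 91.2, 108 and 96.4 FPKM with DSF, a log2 fold change of 0.22 and an SE of 0.0582 (adjusted p = 0.0065). Mcm10 had a log2 fold change of 0.50 and an SE of 0.154 (adjusted p = 0.0146) and no overlap, at 0.487 to 0.794 FPKM without and 0.821 to 1.04 FPKM with DSF. Cdc6 had 0.39 (SE 0.148, adjusted p = 0.0394), and its groups met, at 0.628 to 0.779 FPKM without and 0.78 to 1.11 FPKM with DSF. The Cdc6 call was lost without replicate 2, 3 or 4 with DSF or replicate 2 or 3 without it (adjusted p from 0.0533 to 0.118), and it was lost with either pair of IL4CD40 libraries alone (0.0828 and 0.0906). With only replicates 3 and 4 of IL4CD40, Mcm10 did not pass either (0.32, adjusted p = 0.087) and Mcm6 turned to 0.017, while Mcm5 was -0.15 there and -0.39 with only replicates 1 and 2. In the single fit of all 20 libraries Cdc6 (adjusted p = 0.248), Mcm10 (0.0808) and Cdt1 (0.252) did not pass. The 4 rises depend on the scaling: with total counts, which moved the median gene from -0.015 to -0.164, none of them passed the threshold, although all 4 kept their sign. With LPS the same scaling moved the median gene from 0.002 to -0.206, and there Pcna (0.39), Mcm10 (0.55) and Cdc6 (0.68) still passed and Mcm7 (0.10, adjusted p = 0.0604) did not.

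**Figure D3:**
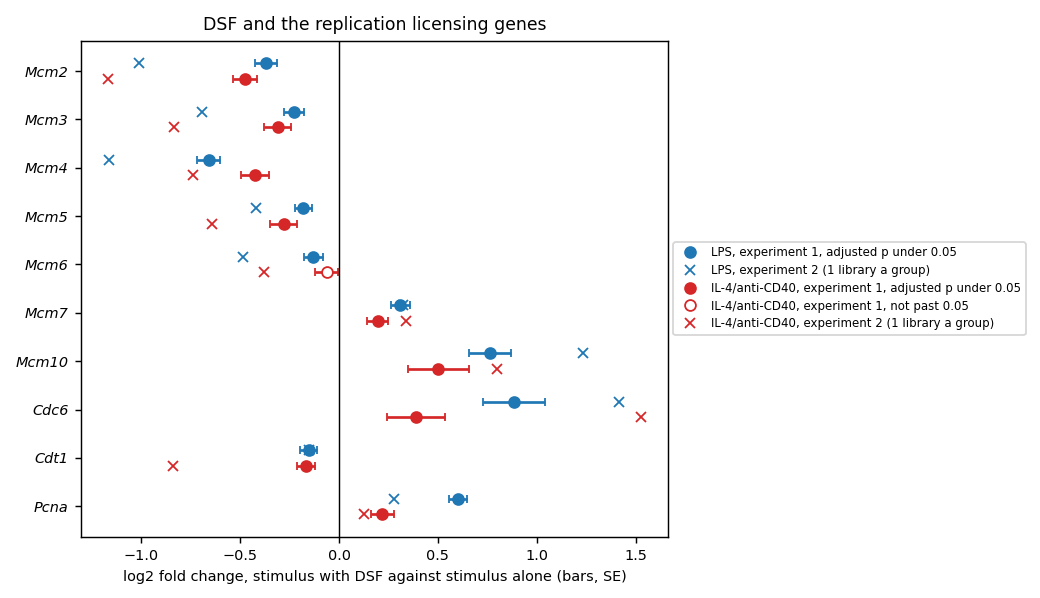
Log2 fold change of each licensing gene with DSF, for LPS (blue) and IL4CD40 (red). Circles are experiment 1 with the SE as bars (filled where the adjusted p is under 0.05), and crosses are the single libraries of experiment 2. Mcm2 to Mcm6 and Cdt1 lie left of 0, and Mcm7, Mcm10, Cdc6 and Pcna lie right of 0, under both stimuli and in both experiments. With total counts as the scaling Pcna turns below 0 in experiment 2.

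Whether DSF acted differently under the 2 stimuli was tested as an interaction over 16 libraries. Only Pcna passed, with a DSF effect larger by 0.38 on the log2 scale with LPS than with IL4CD40 (SE 0.0794, adjusted p = 0.00279 from edgeR). Thus 1 of 10 members was called as more raised and 0 as more lowered, against 7.92% and 6.96% of 15130 genes. In a single fit that also held the unstimulated libraries the difference in Pcna was 0.31 and did not pass (adjusted p = 0.0792). The difference was larger in size for Cdc6 but did not pass, at 0.49 (95% interval 0.054 to 0.926, adjusted p = 0.126), and neither did 0.26 for Mcm10 or -0.24 for Mcm4 (-0.435 to -0.04, adjusted p = 0.0999). With total counts as the scaling Mcm4 did pass, at -0.29 (adjusted p = 0.0371). With only replicates 3 and 4 of IL4CD40 Mcm4 passed as well (-0.32, adjusted p = 0.024), and with only replicates 1 and 2 Mcm5 did (0.21, adjusted p = 0.0178). Pcna passed with either pair, at 0.35 and 0.40. For Cdt1 the difference was 0.01, with an interval of -0.117 to 0.136. Mcm6 passed the threshold with LPS but not with IL4CD40, yet its difference between the stimuli did not pass (-0.07, interval -0.249 to 0.107, edgeR adjusted p = 0.635).

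The opposite moves of Mcm4 and Mcm7, which are neighbours in the ring of the hexamer, can be read from their ratio in each library. This ratio was chosen after the values had been seen and is a description. Mcm7 FPKM divided by Mcm4 FPKM was 1.01, 0.971, 0.953 and 1.02 in unstimulated cells, 0.892, 0.954, 0.887 and 0.866 with LPS, and 0.969, 0.984, 1.03 and 1.14 with IL4CD40. With DSF it was 1.75, 1.58, 1.9 and 1.84 under LPS and 1.38, 1.56, 1.62 and 1.79 under IL4CD40. No library with DSF reached down to any library without it. The summed level of the 6 subunits was 117 ± 0.92 FPKM with LPS and 102 ± 6.03 with LPS and DSF, and 138 ± 10.7 with IL4CD40 and 120 ± 2.75 with DSF added. Mcm4 made up 13.6% of that sum with LPS and 9.71% with LPS and DSF, and Mcm7 12.2% and 17.1%. The share of reads of Cops6 and Ap4m1 among those of Mcm7 was not tested. Cops6 was lower with DSF under both stimuli, and Ap4m1 passed the test as lower only with LPS.

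**Figure D4:**
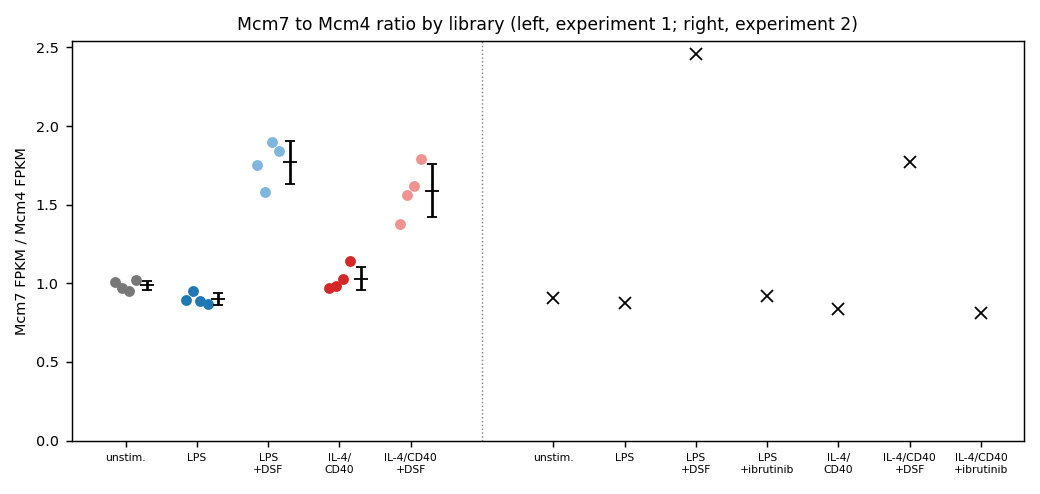
Ratio of Mcm7 FPKM to Mcm4 FPKM in each library, on a linear axis from 0, with the mean ± SD beside each group of experiment 1 and 1 cross per library of experiment 2. The libraries with DSF lie between 1.38 and 2.46, and those without it, ibrutinib included, between 0.81 and 1.14.

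The cells that received a stimulus and DSF were also set against unstimulated B cells. With LPS and DSF, Pcna was raised (log2 fold change 1.05, SE 0.0904, adjusted p = 9.02e-06 from edgeR), as was Mcm10 (1.01, SE 0.349, adjusted p = 0.0262), while Mcm4 (-0.90, adjusted p = 2.17e-05) and Mcm2 (-0.54, adjusted p = 0.00113) were lowered. These are 2 raised and 2 lowered of 10, against 34.3% and 37.3% of 14663 genes. The other 6 did not pass, among them Mcm3 (0.088, 95% interval -0.107 to 0.284), Cdt1 (0.20, -0.04 to 0.437) and Mcm7 (-0.061, -0.249 to 0.127), which LPS alone had moved. Mcm10 was not called when certain libraries were left out, giving 1 raised without 3 of the 8 in turn, and its log2 fold change was 0.46 against unstimulated replicates 3 and 4 and 1.85 against replicates 1 and 2. With IL4CD40 and DSF, Pcna (0.92), Cdt1 (0.48), Mcm5 (0.43), Mcm2 (0.38) and Mcm3 (0.32) were raised and Mcm4 (-0.59) was lowered, with adjusted p from 2.26e-05 to 0.00494. These are 5 raised and 1 lowered of 10, against 33.4% and 35.3% of 14678 genes. With total counts as the scaling, which put the median gene at -0.428 and -0.31 in these comparisons, the numbers became 1 raised and 5 lowered with LPS and DSF, and 1 raised and 2 lowered with IL4CD40 and DSF. These comparisons share their libraries with the ones above, so they are no separate evidence.

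Several marker lists moved with DSF, and their part in these results was not tested. The summed level of the 8 B cell markers was 1800 to 1830 FPKM with LPS and 1290 to 1360 with LPS and DSF, and 2270 to 2900 with IL4CD40 and 1630 to 1700 with DSF added. Of these 8 markers, 8 fell with LPS and 6 fell and 1 rose with IL4CD40. Of the markers of other cells, some of which activated B cells also express, several lists had a higher summed level. The 7 T cell markers summed to 2.15 to 3.13 FPKM with LPS and 4.47 to 6.56 with LPS and DSF (1.82 to 2.94 and 4.05 to 5.26 with IL4CD40). That sum rests on Trac, the T cell receptor alpha constant gene, which rose (1.95 and 1.32 on the log2 scale), whereas Cd8a (-1.41) and Cd8b1 (-1.60) fell with LPS and the other 4 had too few counts to be tested under either stimulus. In the same order, the 5 NK cell markers summed to 1.09 to 1.3 and 0.992 to 1.11 (0.741 to 0.938 and 0.769 to 1.29), and the 7 erythroid markers to 1.72 to 3.15 and 3.06 to 4.83 (1.72 to 2.07 and 3.07 to 4.22). The 5 neutrophil markers summed to 18.7 to 20.6 and 24.3 to 27.5 FPKM (12.3 to 17.2 and 19 to 23), the 6 myeloid markers to 92.9 to 107 and 96.9 to 103 (98.5 to 114 and 130 to 165), the 5 dendritic cell markers to 9.65 to 10.3 and 15.2 to 16.8 (16.4 to 18 and 18.1 to 19.4), and the 6 plasma cell markers to 399 to 404 and 477 to 511 (335 to 342 and 374 to 385). These sums can hide genes that moved apart. With LPS, DSF raised 2 and lowered 2 dendritic cell markers, raised 2 and lowered 1 of the myeloid markers, and raised 4 and lowered 1 of the plasma cell markers. With IL4CD40 it raised 1 and lowered 1 of the dendritic cell markers, raised 4 and lowered 0 myeloid markers, and raised 2 and lowered 0 plasma cell markers. No marker was at 0 in every library, but Ly6g, which defines neutrophils, and Hba-a2, an alpha globin gene, had at most 2 and 8 counts.

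The single libraries of experiment 2 allow no test, and a gene is counted there where its log2 ratio of TMM-normalised counts is 2-fold or more. With DSF, all 10 members had the same sign as in experiment 1 under both stimuli with this scaling. The share of all genes that kept their sign was not computed, so this is not read as particular to the members. With total counts as the scaling, which put the median gene at -0.339 with LPS and -0.248 with IL4CD40, Pcna turned to -0.03 and -0.12, and when only genes averaging 50 counts or more were scaled, Cdt1 turned to 0.00 (0.002) with LPS. Under LPS, Mcm4 read 17 FPKM without and 7.56 FPKM with DSF (log2 ratio -1.16) and Mcm2 10.4 and 5.16 FPKM (-1.01). Cdc6 read 0.693 and 1.87 FPKM (1.41) and Mcm10 0.894 and 2.11 FPKM (1.23), at 67 counts for Cdc6 and 127 for Mcm10 in the library without DSF. Thus 2 of 10 members were 2-fold or more higher and 2 lower, against 20.3% and 19.5% of 14275 genes. Mcm7 had a log2 ratio of 0.32 and Pcna 0.28, and the Mcm7 to Mcm4 ratio was 0.875 without and 2.46 with DSF. Under IL4CD40, Cdc6 (1.53) was 2-fold or more higher and Mcm2 (-1.17) lower, so 1 member each, against 21.9% and 20.3% of genes. Cdt1 had -0.84, Mcm3 -0.83, Mcm4 -0.74, Mcm5 -0.64, Mcm6 -0.38, Mcm7 0.34, Mcm10 0.80 and Pcna 0.12.

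With TMM scaling, ibrutinib left most members closer to the stimulated libraries than DSF did, at 1 library per condition. Pcna was an exception with IL4CD40, at -0.16 with ibrutinib and 0.12 with DSF. With LPS its log2 ratios were similar in size, at -0.25 and 0.28. The log2 ratios with ibrutinib ran from -0.55 (Cdc6) to 0.17 (Mcm5) with LPS and from -0.17 (Mcm6) to 0.28 (Cdc6) with IL4CD40. Of the members, 0 were 2-fold or more higher or lower. Among all genes with LPS 2.81% were higher and 2.47% lower, and the shares with IL4CD40 were 2.23% and 1.69%, so few genes of any kind passed this limit. The Mcm7 to Mcm4 ratio was 0.917 and 0.81 with ibrutinib. The 2 drugs were not compared by a test. For the stimuli themselves, 0 members passed 2-fold in either direction, where LPS had 8.62% of genes higher and 9.88% lower, and IL4CD40 10.7% and 13.7%. Pcna had log2 ratios of 0.69 and 0.61 and Mcm3 0.55 and 0.66 with LPS and IL4CD40, and Mcm2 0.07 and 0.59. Mcm6 had -0.54 and -0.32, from 37.1 FPKM in the unstimulated library, and Cdc6 had 0.59 and 0.47, from 0.457 FPKM.

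The rest of the replication machinery is given from lists of related genes, over which DSF also moved genes in both directions. The counts are to be read against all genes tested, of which 36% were lowered and 35.1% raised by DSF with LPS, and 31.6% and 30.1% with IL4CD40. Of the 6 ORC subunits, which mark origins, 3 were lowered and 2 raised by DSF under each stimulus (median log2 fold change -0.24 in both). Orc2 (-0.68 with LPS and -0.71 with IL4CD40), Orc5 (-0.45 and -0.79) and Orc3 (-0.33 and -0.49) fell, and Orc1 (0.74 and 0.65) rose. Of 5 licensing control and kinase genes, 2 rose and 1 fell with LPS (median 0.22) and 2 rose and 2 fell with IL4CD40 (median 0.29). The risen pair was Cdc7 (0.98 and 0.91) and Dbf4 (0.58 and 0.67), the kinase that triggers origins and its activating subunit. The other called genes were Mcmbp (-0.31 and -0.30), which binds Mcm2-7 complexes, and Dtl (-0.34 with IL4CD40), which targets Cdt1 for destruction.

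Of 11 genes of origin firing and helicase activation, 4 fell and 1 rose with LPS and 6 fell and 1 rose with IL4CD40 (medians -0.26 and -0.25). Topbp1, a scaffold for helicase activation, fell most (-0.93 and -0.84). Next in size were Gins4 (-0.81) and Gins3 (-0.47) with LPS and Gins2 (-0.73) and Recql4 (-0.59) with IL4CD40. The list of the clamp loader and clamp users, which also holds the Rpa genes of the single-strand binding complex, moved against Pcna. All 10 of 10 fell with LPS (median -0.49) and 7 of 10 with IL4CD40 (median -0.33), with none raised. Rpa3, a subunit of the single-strand binding complex, fell by 1.05 on the log2 scale with LPS, Rfc2 fell by 0.66 and Rfc1 by 0.64, and with IL4CD40 Rfc4 fell by 0.61. Of 2 MCM paralogs Mcm8 fell (-1.34 and -0.82), while Mcm9 was at 0.17, called as raised with LPS, and at 0.11 with IL4CD40, not past the threshold. Of 3 fork protection genes, 2 fell under each stimulus, Tipin (-0.61 and -0.64) and Timeless (-0.19 and -0.32).

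Among 13 E2F and pocket protein genes, DSF lowered 7 and raised 5 with LPS and lowered 5 and raised 4 with IL4CD40 (medians -0.26 and -0.18). E2f6 (1.32 and 1.10) and E2f3 (1.21 and 0.81) rose under both, and E2f7 (1.38) rose with LPS, from 0.0793 to 0.204 FPKM on average (13 to 38 counts). Rbl2 (-0.93) fell with LPS, and E2f8 (-1.02) and E2f5 (-0.78) fell with IL4CD40. Of 12 S, G2 and M phase markers, 8 fell and 1 rose with LPS and 7 fell and 1 rose with IL4CD40 (medians -0.36 and -0.35). The riser was Birc5, a survival and mitosis gene (1.47 and 0.85), and the largest falls were in Aurkb (-1.31 and -0.69), Ccnb1 (-1.04 and -1.06) and Ccna2 (-0.93 and -0.58). Their summed level was low at 3 h, at 29.1 to 31.5 FPKM with LPS and 25.2 to 28.3 with LPS and DSF, and at 31.4 to 32.8 with IL4CD40 and 28.4 to 30.4 with DSF added. The stimuli alone raised none of these 12 and lowered 6 with LPS and 4 with IL4CD40, where 33.3% and 32.1% of all genes tested were lowered, and this was against an unstimulated group whose pairs differ in this very sum.

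**Figure D5:**
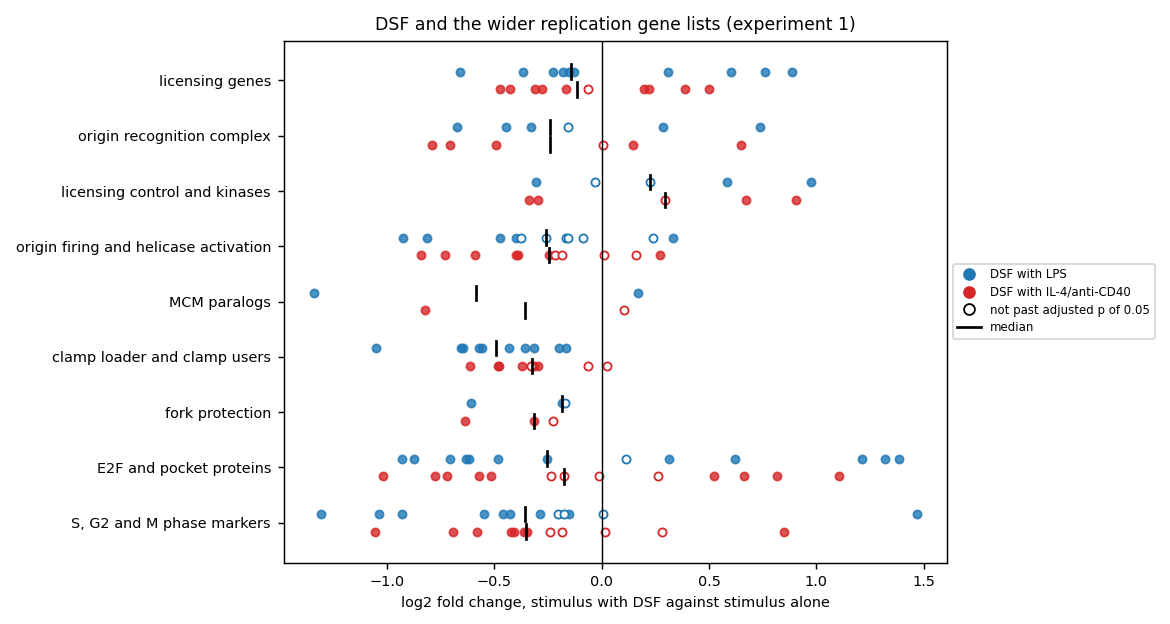
Log2 fold change with DSF for each gene of the licensing set and of 8 related lists, under LPS (blue) and IL4CD40 (red). Filled points passed an adjusted p of 0.05, open points did not, and the black tick is the median of the list. The clamp loader and clamp users, a list that also holds the Rpa genes, lie left of 0 except for 1 open point with IL4CD40. The other lists with more than 3 genes hold points on both sides of 0.

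Across the 20 libraries of experiment 1 the members did not move as 1 unit. The Pearson correlation of each hexamer subunit with the mean of the other 5, on log2 CPM, was 0.842 for Mcm2, 0.75 for Mcm3, 0.744 for Mcm5, 0.319 for Mcm4, -0.211 for Mcm6 and -0.265 for Mcm7. The highest pair among the 10 was Mcm3 and Mcm5 (0.914) and the lowest Mcm6 and Cdc6 (-0.843). These values describe libraries that share groups and scaling. The unstimulated split enters every one of these correlations, and it was widest for Mcm6, Cdc6 and Mcm10. The 5 genes whose pattern was most like the mean of Mcm2 to Mcm7, among the 9834 genes that averaged 100 counts or more, were Nudt3 (0.944), 2210016F16Rik (0.941), Fdx1 (0.94), Eloa (0.932) and Tm9sf2 (0.93).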

How the data were processed

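RNA-seq libraries of mouse splenic B cells (20 in experiment 1, 7 in experiment 2) were analysed from the deposited tables. Per the labels and methods, the authors sequenced poly(A)-selected RNA on an Illumina NovaSeq, aligned reads with HISAT2 2.0.5 to mm10 and counted them with featureCounts 1.5.0-p3. The annotation release and the strand setting were not given in the sources used here. The authors deposited raw counts per gene, with 17804851 to 23632992 per library in experiment 1 and 16049295 to 24619776 in experiment 2, and FPKM, which are per gene length. The library size that the deposited FPKM imply was 0.869 to 1.18 times the total count over the 20 libraries of experiment 1, and 0.961 to 1.02 times the TMM effective library size (relative to its mean ratio), so these FPKM carry a scaling closer to TMM than to total counts.

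Levels between genes were compared as deposited FPKM. Groups of 4 libraries were compared on counts with edgeR 4.0.16 (TMM scaling, filterByExpr, glmQLFit and glmQLFTest, with only the groups compared in the fit) in R 4.3.3, and p-values were adjusted by Benjamini-Hochberg over all genes tested, with 0.05 as the threshold and 95% intervals from the test's degrees of freedom. Tests were two-sided, and the procedure was tested on simulated data. Experiment 2 has no replicates, so log2 ratios of TMM-normalised CPM (prior count 2, genes averaging 10 counts or more) were used with a limit of 2-fold. Alternatives were DESeq2 1.42.0, other scalings and filters, a single fit of all 20 libraries, a minimum log2 fold change of 1, the replicate number as a block, leaving out each library, and, added after seeing the data, either pair of unstimulated or IL4CD40 libraries alone.

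The members and gene lists were chosen with earlier results of these data known. All members are named, and from each other list up to 4 called genes per comparison with the largest change. Replicate libraries differed from each other beyond sampling noise in all 30 pairs within groups, so none was counted as a repeat. Promoters are from RefSeq on GRCm38.p6 and were searched on both strands.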

Additional observations from a re-analysis of the deposited data

Results flagged for a closer look

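Pcna in replicate 1 with IL4CD40, at 88 FPKM, stood apart from the other 3 libraries of its group, which lay between 82.2 and 83.2 FPKM. The gap to the nearest library was 0.833 of the group's range, just above Dixon's limit for 4 samples. It was the only such value in 50 groups of 4 tested, and chance gives about 1 in 20. The effect of DSF on Pcna was larger with LPS than with IL4CD40, by 0.377 on the log2 scale with edgeR's interaction test (adjusted p = 0.00279), with all libraries with DSF above all without it under both stimuli, and it did not pass in the fit of all 20 libraries (0.31, adjusted p = 0.0792).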

How the results depend on the processing

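The directions of DSF under each stimulus were the same for all 10 members in experiment 1 with every alternative run, apart from Mcm6 for DSF with IL4CD40 when only replicates 3 and 4 of IL4CD40 were used (0.017). Depth limits Cdc6 and Mcm10, which had 53 to 218 counts per library in experiment 1, and comparisons with unstimulated cells are limited by the split of that group, as are those with IL4CD40 to a smaller degree. The pairs of unstimulated and of IL4CD40 replicates were chosen after seeing the data, and fits with a single pair leave out the spread between pairs. The cause was not tested for any change given here.

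With DESeq2, the members counted were 1 instead of 2 lowered for LPS against unstimulated. The sign turned for the difference of the DSF effects (Cdt1 -0.016). With total counts as the scaling, the members counted were 1 instead of 3 raised for LPS against unstimulated, 2 instead of 0 lowered for IL4CD40 against unstimulated, 0 instead of 4 raised for DSF with IL4CD40, 0 instead of 2 raised for LPS against IL4CD40, 1 instead of 0 lowered for the difference of the DSF effects, 1 instead of 2 raised for LPS and DSF against unstimulated, 5 instead of 2 lowered for LPS and DSF against unstimulated, 1 instead of 5 raised for IL4CD40 and DSF against unstimulated, 2 instead of 1 lowered for IL4CD40 and DSF against unstimulated, 1 instead of 2 higher for DSF with LPS in experiment 2, 3 instead of 1 lower for DSF with IL4CD40 in experiment 2. Signs also changed in LPS against unstimulated (Mcm6 -0.030), IL4CD40 against unstimulated (Mcm6 -0.14), LPS against IL4CD40 (Mcm4 -0.11), the difference of the DSF effects (Cdt1 -0.045), LPS and DSF against unstimulated (Mcm3 -0.32, Mcm5 -0.37, Mcm6 -0.37, Cdc6 -0.32, Cdt1 -0.21), IL4CD40 and DSF against unstimulated (Mcm7 -0.22). With DESeq2's size factors in edgeR, the members counted were 1 instead of 2 lowered for LPS against unstimulated. Members on the other side of 0 were in the difference of the DSF effects (Cdt1 -0.015). With every gene of any count kept, the members counted were 1 instead of 2 lowered for LPS against unstimulated. The sign turned for the difference of the DSF effects (Cdt1 -0.0043), LPS and DSF against unstimulated (Mcm5 -0.044, Mcm6 -0.031, Cdc6 -0.0029). With at least 10 counts in every library, the members counted were 1 instead of 2 lowered for LPS against unstimulated. In the single fit of all 20 libraries, the members counted were 2 instead of 0 lowered for IL4CD40 against unstimulated, 2 instead of 4 raised for DSF with IL4CD40, 0 instead of 2 raised for LPS against IL4CD40, 0 instead of 1 raised for the difference of the DSF effects. Members on the other side of 0 were in IL4CD40 against unstimulated (Mcm6 -0.038), the difference of the DSF effects (Cdt1 -0.063). With a minimum log2 fold change of 1 as well, every number of members raised or lowered in experiment 1 that was above 0 became 0, apart from the 2 raised for LPS and DSF against unstimulated. Against unstimulated replicates 3 and 4 only, the members counted were 4 instead of 2 lowered for LPS against unstimulated, 4 instead of 0 lowered for IL4CD40 against unstimulated, 4 instead of 2 raised for LPS and DSF against unstimulated, 5 instead of 2 lowered for LPS and DSF against unstimulated, 2 instead of 1 lowered for IL4CD40 and DSF against unstimulated. Signs also changed in LPS against unstimulated (Mcm10 -0.25), LPS and DSF against unstimulated (Mcm5 -0.14, Cdc6 -0.56), IL4CD40 and DSF against unstimulated (Mcm6 0.39, Mcm7 -0.020, Mcm10 -0.14). Against unstimulated replicates 1 and 2 only, the members counted were 5 instead of 3 raised for LPS against unstimulated, 1 instead of 0 lowered for IL4CD40 against unstimulated, 4 instead of 2 raised for LPS and DSF against unstimulated, 8 instead of 5 raised for IL4CD40 and DSF against unstimulated, 2 instead of 1 lowered for IL4CD40 and DSF against unstimulated. Members on the other side of 0 were in LPS against unstimulated (Mcm2 0.016, Mcm6 -0.12, Cdc6 0.33), IL4CD40 against unstimulated (Mcm6 -0.34, Mcm10 0.75, Cdc6 0.54), LPS and DSF against unstimulated (Mcm6 -0.32, Mcm7 0.015, Cdt1 -0.022), IL4CD40 and DSF against unstimulated (Cdc6 0.93). With IL4CD40 replicates 3 and 4 only, the members counted were 2 instead of 4 raised for DSF with IL4CD40, 1 instead of 2 raised for LPS against IL4CD40, 1 instead of 0 lowered for the difference of the DSF effects. The sign turned for IL4CD40 against unstimulated (Mcm6 -0.032, Mcm10 0.12), DSF with IL4CD40 (Mcm6 0.017), the difference of the DSF effects (Mcm3 -0.040, Mcm5 -0.040, Cdt1 -0.0045). With IL4CD40 replicates 1 and 2 only, the members counted were 2 instead of 1 raised for the difference of the DSF effects. Signs also changed in LPS against IL4CD40 (Mcm4 -0.043). With genes averaging 50 counts or more in experiment 2, the members counted were 1 instead of 2 lower for DSF with LPS in experiment 2.

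Leaving out 1 library at a time gave these ranges: members lowered for LPS against unstimulated 1 to 3, Mcm6 for IL4CD40 against unstimulated -0.11 to 0.16, Mcm10 for IL4CD40 against unstimulated -0.34 to 0.15, members raised for LPS against IL4CD40 1 to 2, Mcm4 for LPS against IL4CD40 -0.020 to 0.045, Cdt1 for the difference of the DSF effects -0.014 to 0.023, members raised for LPS and DSF against unstimulated 1 to 2, Mcm5 for LPS and DSF against unstimulated -0.082 to 0.085, Mcm6 for LPS and DSF against unstimulated -0.10 to 0.16, Cdc6 for LPS and DSF against unstimulated -0.23 to 0.38, Mcm6 for IL4CD40 and DSF against unstimulated -0.18 to 0.089, Cdc6 for IL4CD40 and DSF against unstimulated -0.43 to 0.17. Over all groups, most libraries with the same replicate number did not deviate together, so the number was not taken as a pairing. The correlation was over 0.1 in 5 of 40 pairs, and 6 of 20 libraries correlated best with their own number. Between IL4CD40 and IL4CD40 with DSF the mean correlation was 0.184 for equal numbers (-0.0146 to 0.378). For other numbers there it was -0.0612 (-0.415 to 0.332), so a pairing in this comparison is not excluded. With the replicate block, the members counted were 1 instead of 2 lowered for LPS against unstimulated. The sign turned for IL4CD40 against unstimulated (Mcm10 0.032), IL4CD40 and DSF against unstimulated (Mcm6 0.0096, Cdc6 0.065). Mcm4 for LPS against unstimulated (-0.20, adjusted p = 0.0524) and Cdc6 for DSF with IL4CD40 (0.38, adjusted p = 0.0834, log2 fold change 0.24 to 0.46 over its alternatives) were then not past the edgeR threshold, and the block changed no other call.

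Over all genes, the share of calls that were higher fell by over 10 percentage points with total counts as the scaling, from 47.1% to 31.2% for LPS against unstimulated, from 48.6% to 38.3% for IL4CD40 against unstimulated, from 49.4% to 34.2% for DSF with LPS, from 48.8% to 35.9% for DSF with IL4CD40, from 56.3% to 34% for LPS against IL4CD40, from 53.2% to 36.7% for the difference of the DSF effects, from 47.9% to 29.7% for LPS and DSF against unstimulated, from 48.6% to 31.6% for IL4CD40 and DSF against unstimulated. The same share became 62.6% instead of 49.4% for DSF with LPS with the minimum change, 66% instead of 48.8% for DSF with IL4CD40 with the minimum change, 70.8% instead of 56.3% for LPS against IL4CD40 with the minimum change, 22.4% instead of 53.2% for the difference of the DSF effects in the single fit. With a minimum log2 fold change of 1 as well, the genes raised and lowered numbered 1728 and 2214 for LPS against unstimulated instead of 4283 and 4818, 1734 and 2540 for IL4CD40 against unstimulated instead of 4389 and 4633, 1619 and 969 for DSF with LPS instead of 4966 and 5096, 1369 and 705 for DSF with IL4CD40 instead of 4301 and 4514, 1161 and 478 for LPS against IL4CD40 instead of 3145 and 2439, 185 and 167 for the difference of the DSF effects instead of 1199 and 1053, 2649 and 2963 for LPS and DSF against unstimulated instead of 5031 and 5464, 2185 and 2700 for IL4CD40 and DSF against unstimulated instead of 4901 and 5178. With total counts as the scaling, the genes raised and lowered numbered 2428 and 4712 for LPS against IL4CD40 instead of 3145 and 2439, 3151 and 7453 for LPS and DSF against unstimulated instead of 5031 and 5464, 3117 and 6760 for IL4CD40 and DSF against unstimulated instead of 4901 and 5178. In the single fit of all 20 libraries, the genes raised and lowered numbered 205 and 710 for the difference of the DSF effects instead of 1199 and 1053.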
